A study of Mus musculus with 6 samples.

Results

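The SR splicing factor genes examined here are Srsf1, Srsf2, Srsf3, Srsf4, Srsf5, Srsf6, Srsf7, Srsf9, Srsf10 and Srsf11. They were taken by gene name, and their introns were found through the gene identifiers in the intron tables. All 10 had at least 1 intron listed in every total RNA library, among 9844 genes with an intron listed for that gene alone. Their 27 introns were a small part of the 68322 introns listed in all libraries. The cells were E14 mouse embryonic stem cells of 129/Ola background, grown on gelatin with serum and leukemia inhibitory factor, and the labels name no engineered allele. Every culture was transfected with an siRNA by lipofection, directed against Son in the knockdown and a control siRNA otherwise, and RNA was taken 24 hours later. Total RNA without its ribosomal part was sequenced in 2 samples per group, and Nanopore long-read cDNA of polyadenylated RNA in 1 per group. The labels do not say that the replicates came from separate cultures, so p-values measure only the spread between these samples. For the long reads, the labels give the same knockdown RNA as starting material in both groups. The long-read library labelled control nevertheless had more Son, at 70.4 CPM of all long reads against 19.7 in the knockdown (log2 ratio -1.83, 95% interval -2.38 to -1.33).

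SR proteins join RNA recognition motifs to a tail rich in arginine and serine. They bind exons, mostly at enhancer sequences, and recruit the U1 snRNP and U2AF to the neighbouring splice sites. Kinases of the CLK and SRPK families phosphorylate the tail, which governs their place in nuclear speckles, where SON is a scaffold protein. SR genes limit their own output by splicing in an exon with an early stop codon, often called a poison exon, or by keeping an intron, and such RNA is removed by nonsense-mediated decay. In stem cells SR proteins act in constitutive and alternative splicing, in mRNA export and in polyadenylation site choice.

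The stop-carrying exons of 5 decay models are shown first: those of Srsf3, Srsf6, Srsf7 and Srsf9, and in Srsf11 the exon at which a listed intron ends. Each sequence starts at the first base of the exon and ends at the stop codon that is in frame in the decay model. The stop is in capitals and the rest of the exon is left out. The letters come from GENCODE M21 transcripts. Stop-carrying exons of Srsf4-203 (exon 2, 207 nt) and Srsf11-212 (exon 3, 117 nt), models with 2 and 1 long reads over both libraries, are not shown.
Srsf3-201 exon 4: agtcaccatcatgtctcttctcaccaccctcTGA
Srsf7-203 exon 4: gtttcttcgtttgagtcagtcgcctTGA
Srsf6-201 exon 3: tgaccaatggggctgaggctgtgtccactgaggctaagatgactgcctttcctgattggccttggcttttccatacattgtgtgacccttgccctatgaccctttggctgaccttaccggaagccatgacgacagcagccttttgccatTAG
Srsf9-205 exon 2: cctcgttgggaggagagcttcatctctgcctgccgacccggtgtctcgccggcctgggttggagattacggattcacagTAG
Srsf11-206 exon 4: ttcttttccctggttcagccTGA
The stop ended 34 bases into the 456 nt exon of Srsf3 and 28 bases into the 460 nt exon of Srsf7. It ended 152 bases into the 268 nt exon of Srsf6, 82 bases into the 358 nt exon of Srsf9 and 23 bases into the 109 nt exon of Srsf11. The exon of Srsf3 lies in the 2150 nt intron 3 of the coding model Srsf3-202, and that of Srsf7 in the 874 nt intron 3 of Srsf7-208. Models annotated as retained introns keep these exons whole with their flanks in Srsf3 (Srsf3-204), Srsf6 (Srsf6-204) and Srsf7 (Srsf7-206 and Srsf7-207).

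The exon junctions of the introns whose read balance is described most closely below follow. Each shows 24 bases of coding sequence on either side of the removed intron, with the last 3 bases of the upstream exon and the first 3 of the downstream exon in capitals.
Srsf2 intron 1: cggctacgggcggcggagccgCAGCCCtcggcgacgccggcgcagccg
Srsf3 intron 5: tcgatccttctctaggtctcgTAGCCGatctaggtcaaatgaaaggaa
Srsf7 intron 6: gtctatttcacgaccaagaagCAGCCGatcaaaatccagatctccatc
Srsf7 intron 7: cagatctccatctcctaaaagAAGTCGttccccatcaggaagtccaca
GC made up 85.4% of the bases around Srsf2 intron 1 and 45.8% of those around Srsf3 intron 5 and Srsf7 intron 6. Around Srsf7 intron 7 it was 47.9%. These 4 junctions lie in the part of the mRNA that codes for the arginine- and serine-rich tail.

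The total RNA tables give, for each intron, the reads split (spliced) or unsplit at its 5′ and 3′ junctions. Splicing efficiency is the share of split reads over both junctions. The libraries held 10556187 to 16012286 split reads at 5′ junctions, and the long-read control and knockdown held 3080426 and 1874851 reads. Over all common introns the mean splicing efficiency was 0.903 and 0.893 for the controls, 0.893 for knockdown replicate 1 and, lowest of all, 0.875 for knockdown replicate 2. Levels are given as CPM, reads scaled to a library's split reads at 5′ junctions. Son, the targeted gene, had a spliced level of 273 and 306 CPM for control and 92.1 and 101 CPM for knockdown libraries. That was a log2 fold change of -1.61 (SE 0.087, edgeR quasi-likelihood test, adjusted p = 3.72e-10). Son had 217 long reads in the control and 37 in the knockdown, a difference in the same direction. Of 10 stem cell markers 9 had a listed intron, with a summed level of 4924 to 4966 CPM in the controls and 4807 to 5022 in the knockdown. Single-exon Sox2 was not listed. Of 5 fibroblast markers 1 was listed, at 1.60 to 1.81 and 1.14 to 2.14 CPM, and Col1a1, Col1a2, Col3a1 and Postn were not listed. Neural markers (3 of 4 listed) summed to 119 to 120 in the controls and 87.1 to 112 in the knockdown. Of 3 trophoblast markers 1 was listed, Eomes, at 2.75 to 3.20 CPM in the controls and 3.47 to 6.44 in the knockdown. Cdx2 and Elf5 were not listed. Endoderm and mesoderm markers (2 of 6 listed) summed to 3.29 to 6.18 and 2.65 to 7.08 CPM. The neural levels and that of Eomes did not overlap between the groups. The share of all genes without such overlap in level is not given here. The part of these markers in the results below was not tested.

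The tables cover only part of each SR gene. GENCODE M21 has 111 introns in 85 models of these genes, of which 31 were listed in at least 1 library and 27 in all 4. None of the 31 listed introns (0 of 31) contained an annotated exon or lay inside one. The introns that hold the poison exons above, and those that a retained-intron model keeps, were therefore not measured in total RNA as introns. Of the 27 introns, 25 lay between coding exons of a protein-coding model, and the intron numbers used here follow that model. The other two, Srsf4-201 intron 1 and Srsf11-203 intron 4, belong only to models without a coding sequence. The introns were 80 to 5463 nt long and had 49 to 5965 junction reads in a library, with a median of 755.

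No SR gene intron passed the test between control and knockdown. Unsplit against split reads were compared as a log2 odds ratio, positive where the knockdown had more unsplit reads for each split one and so a lower splicing efficiency. edgeR called 0 of 27 SR introns at an adjusted p under 0.05, against 1.76% of 63309 introns tested (1.71% with a lower and 0.0442% with a higher splicing efficiency in the knockdown). At an unadjusted p under 0.05 there was 1 of 27, Srsf2 intron 1, against 9.72% of all introns. DESeq2 called 0 of 27, against 316 of all 63309 introns. limma called 0 of all 63309 introns, so its 0 of 27 says nothing about the SR introns. The median log2 odds ratio was 0.07 over the SR introns, of which 15 were above 0, and 0.12 over all. The 2 control libraries did not overlap the 2 knockdown libraries in 8 SR introns (29.6%, 5 lower and 3 higher in the knockdown), against 37.3% of all introns. Single intervals were wide: over the 27 introns, 95% bounds of the log2 odds ratio reached from -1.66 to 1.64.

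**Figure D1:**
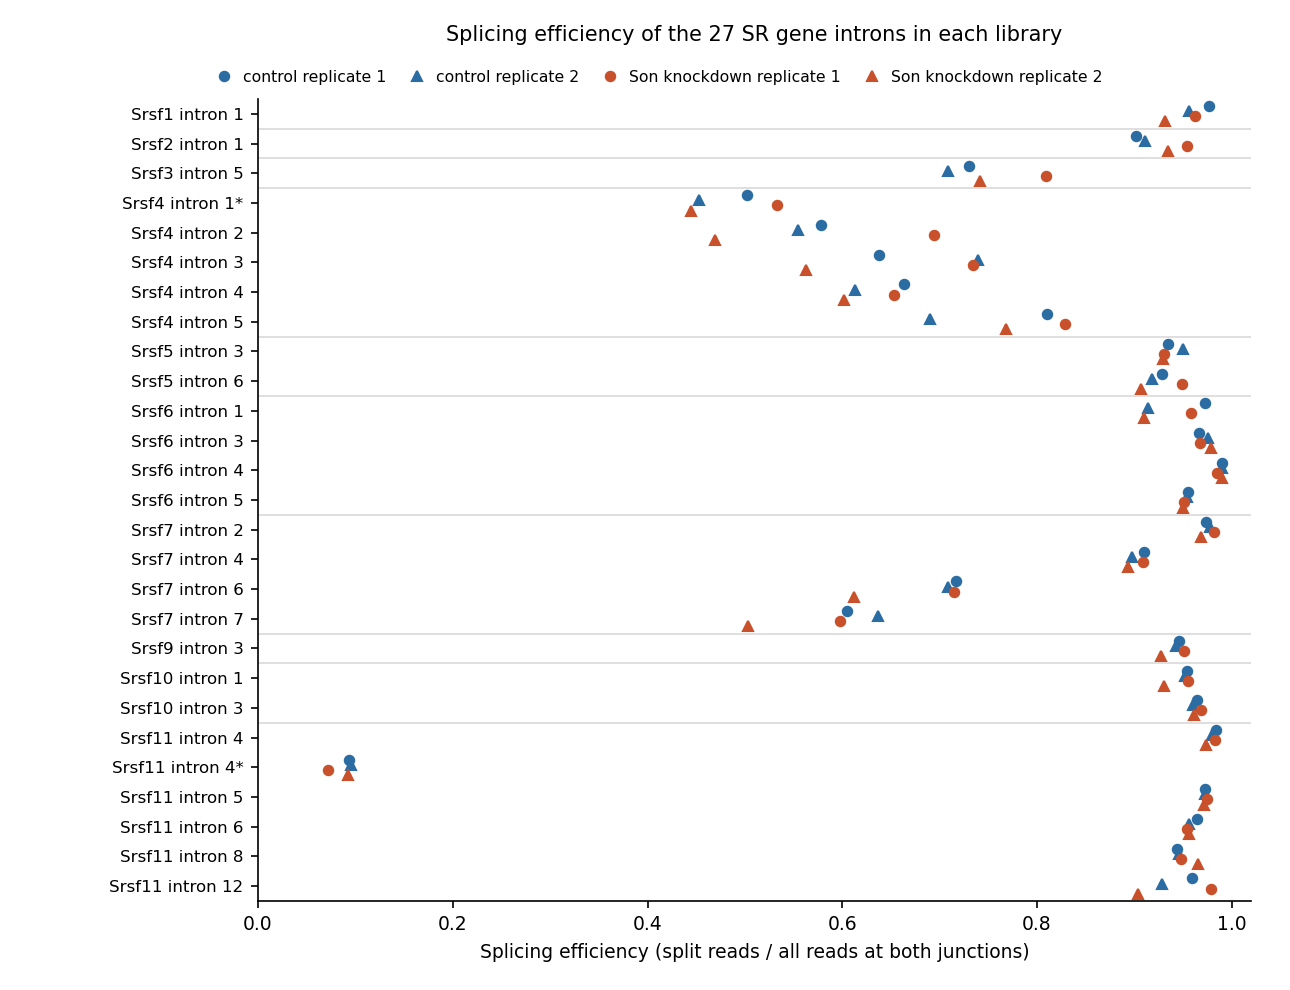
Splicing efficiency (x axis, from 0 to 1) of the 27 SR gene introns (y axis) in the 2 control (blue) and 2 Son knockdown (orange) libraries, circles for replicate 1 and triangles for replicate 2. Asterisks mark the 2 introns found only in models without a coding sequence. Srsf4, Srsf7 introns 6 and 7, Srsf3 intron 5 and the starred Srsf11 intron lie far to the left of the rest in every library.

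Short introns were called more often over the whole table, and the SR genes had too few of them to set against that share. Of 11616 introns of up to 250 nt, 6.81% had a lower splicing efficiency in the knockdown by the test, and their median log2 odds ratio was 0.45. The SR genes had 9 introns of that length, of which 0 were called, with a median log2 odds ratio of -0.11. Srsf6 intron 5 (100 nt) had a splicing efficiency of 0.955 and 0.954 in the controls against 0.951 and 0.949 in the knockdown. Srsf7 intron 4 (80 nt) had 0.910 and 0.897 for control and 0.909 and 0.894 for knockdown libraries. These 9 introns belong to 7 genes, and the length limit was chosen after the data were seen.

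Splicing efficiency differed far more between SR introns than between groups. In 9 of 27 SR introns (33.3%) the control mean was under 0.8, against 12.4% of all introns, while the medians were alike (0.943 and 0.933). These 9 were all 5 listed introns of Srsf4, introns 6 and 7 of Srsf7, intron 5 of Srsf3 and intron 4 of Srsf11-203. All but the starred pair are introns of coding models. The 2 of Srsf7, that of Srsf3 and intron 5 of Srsf4 are the last of their coding regions. Other last introns had high control means, 0.954 for Srsf6 intron 5, 0.944 for Srsf9 intron 3 and 0.943 for Srsf11 intron 12.

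Srsf2 was the SR gene with a called change in splicing efficiency. SRSF2 has a single RNA recognition motif, binds exonic enhancers and also acts in transcription elongation. Its only listed intron, intron 1, is 236 nt long, at chr11:116743158-116743393 (GRCm39, minus strand), between coding exons of Srsf2-201. Splicing efficiency was 0.902 and 0.911 in the controls against 0.954 and 0.934 in the knockdown, so both knockdown libraries were above both controls. Unsplit reads at the 3′ junction numbered 195 and 124 for control and 123 and 77 for knockdown libraries, which is 12.2 and 11.7 against 8.21 and 7.29 CPM. Split reads at the same junction stood at 56.4 and 60.3 CPM in the controls against 89.1 and 53.3 in the knockdown. Unsplit reads were thus fewer in both knockdown libraries, and split reads were more only in knockdown replicate 1.

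Summed per gene, 1 of 10 SR genes passed the edgeR test of splicing efficiency, against 7.11% of 9370 genes, and it was Srsf2. Its log2 odds ratio was -0.84 (SE 0.277, 95% interval -1.39 to -0.30, adjusted p = 0.0364), which is a rise in splicing efficiency. Rises were rare: 12 of 9370 genes (0.128%) had one, and 6.98% had a fall. The sum holds the same reads as the intron, whose log2 odds ratio was -0.83 with an adjusted p of 0.226 in the edgeR test over introns. The call was lost with DESeq2 (adjusted p = 0.0792), which called 521 of all 9370 genes, and with limma (0.335). It was also lost without control replicate 1, control replicate 2 or knockdown replicate 1, and kept without knockdown replicate 2. Log2 odds ratios in these fits were -1.09 to -0.55. Fits without a library leave 1 in its group, and those without a control library called fewer of all genes than the main fit. limma called 0 of all 9370 genes. The Srsf2 call rested on the 3′ junction. At the 5′ junction there were 1 and 1 unsplit reads for control and 6 and 2 for knockdown libraries. With that junction alone the log2 odds ratio was 1.57 (SE 1.019, edgeR adjusted p = 0.631). Mfsd11 and Mettl23 overlap this intron in the annotation, and whether reads were counted by strand is not stated, so reads of these genes cannot be told apart from those of Srsf2 here. Mfsd11 had a spliced level of 16.2 and 21.8 CPM in the controls against 20.9 and 26.8 CPM in the knockdown.

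**Figure D2:**
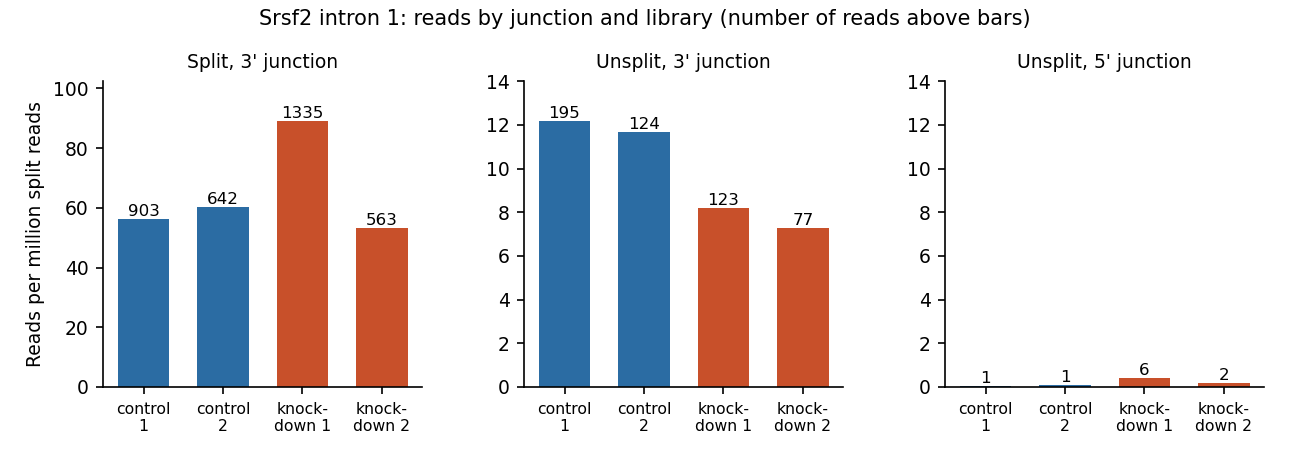
Reads at the junctions of Srsf2 intron 1 in each library, in CPM (y axis, reads scaled to the split reads of the library, starting at 0) with the number of reads above each bar: split at the 3′ junction, unsplit at the 3′ junction and unsplit at the 5′ junction. Unsplit 3′ reads are 11.7 to 12.2 CPM in the controls (blue) and 7.29 to 8.21 in the knockdown (orange).

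Srsf3 codes for the smallest SR protein, which takes part in mRNA export and polyadenylation site choice and binds its own poison exon. Its listed intron, intron 5, is the 90 nt last intron of the coding model, at chr17:29260268-29260357. Splicing efficiency was 0.730 and 0.709 for control and 0.809 and 0.742 for knockdown libraries, and the groups did not overlap. The log2 odds ratio was -0.44 (95% interval -1.27 to 0.38) and did not pass (edgeR adjusted p = 0.879).

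Srsf7 codes for an SR protein with a zinc knuckle, which also acts as an export adaptor. Its introns ran from nearly complete to incomplete splicing. Intron 2 had a splicing efficiency of 0.973 and 0.978 in the controls, intron 6 had 0.717 and 0.709, and the last intron, intron 7 (566 nt, chr17:80509032-80509597), had 0.604 and 0.637. In the knockdown, intron 7 had 0.598 and 0.503, both below the controls, and intron 6 had 0.715 and 0.612. Their log2 odds ratios were 0.41 (95% interval -0.37 to 1.19) and 0.32 (-0.42 to 1.05), with edgeR adjusted p-values of 0.885 and 0.926. Unsplit reads sat at one end of some of these introns. In intron 7 only 9.62% of unsplit reads were at the 3′ junction, while in intron 6 77.2% and in intron 4 93.5% were.

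Srsf1 codes for an SR protein with a pair of RNA recognition motifs that is known for promoting 5′ splice site use, and its listed intron 1 is 457 nt long. Splicing efficiency was 0.976 and 0.956 in the controls against 0.962 and 0.932 in the knockdown, with a log2 odds ratio of 0.70 (95% interval -0.24 to 1.64, edgeR adjusted p = 0.747). The groups overlapped. Its unsplit reads were few, 8 to 20 a library at the 5′ junction and 5 to 13 at the 3′ junction.

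Srsf4, Srsf5 and Srsf6 also code for SR proteins with a pair of RNA recognition motifs, and the 3 genes stood far apart. The listed introns of the Srsf4 coding model were spliced incompletely, with control means from 0.566 to 0.750. Intron 1 of Srsf4-201, which no coding model holds, had a control mean of 0.477. The coding intron 1 of Srsf4 was not listed. Srsf4 intron 5 (113 nt) had 0.810 and 0.690 for control and 0.829 and 0.769 for knockdown libraries. Its intron 2 had 0.578 and 0.554 in the controls against 0.694 and 0.469 in the knockdown, on 49 to 111 reads. The knockdown replicates thus lay on either side of the controls. Gm12992 overlaps introns 4 and 5 of Srsf4 in the annotation. Whether reads were counted by strand is not stated, so its reads cannot be told apart from those of Srsf4 there. The 4 listed introns of Srsf6 had control means of 0.943 to 0.990. Its intron 1 had 0.972 and 0.914 in the controls against 0.958 and 0.910 in the knockdown. Intron 4 of Srsf6 stood at 0.990, 0.990, 0.984 and 0.990 in the 4 libraries on 3846 to 5965 reads. Srsf5 intron 3 had 0.935 and 0.9496 for control and 0.931 and 0.929 for knockdown libraries (log2 odds ratio 0.30, 95% interval -0.33 to 0.92, edgeR adjusted p = 0.908).

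No intron of Srsf9, Srsf10 or Srsf11 passed the test either. SRSF10 is known as a splicing repressor when it loses its phosphates. SRSF11 binds U2AF and acts in the splicing of very short exons in neurons. Srsf9 intron 3 had a splicing efficiency of 0.946 and 0.943 in the controls against 0.951 and 0.927 in the knockdown. Srsf10 intron 1 had 0.954 and 0.952 for control and 0.955 and 0.930 for knockdown libraries. The 5 coding introns of Srsf11 had control means of 0.943 to 0.982, and the largest log2 odds ratio among them in size was -0.36, in intron 8 (95% interval -1.16 to 0.43).

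Among the introns listed in all 4 libraries, 1 borders a stop-carrying exon. Intron 4 of Srsf11-203 (466 nt, chr3:157729869-157730334) lies inside the 3774 nt intron 3 of the coding model, and its 3′ splice site is the start of the stop-carrying exon of Srsf11-206 shown above. Reads split at that site numbered 28 and 22 in the controls against 21 and 21 in the knockdown, or 1.75, 2.07, 1.402 and 1.99 CPM, and the groups overlapped. At its 5′ site 4, 2, 4 and 8 reads were split, fewer than at the 3′ site in every library. Intron 2 of Srsf9-205 (1793 nt) starts at the end of the Srsf9 exon shown above, but it was listed in only 3 of the 4 libraries and was not tested. Unsplit reads at intron 4 of Srsf11-203, 148 to 232 at the 5′ site, also count RNA in which the whole coding intron was present. The splicing efficiency of that Srsf11 intron was 0.094 and 0.095 for control and 0.072 and 0.092 for knockdown libraries. Unsplit reads likewise include whole coding introns at intron 1 of Srsf4-201 (4902 nt), which ends at the 3′ splice site of the 17336 nt coding intron 1. At that intron 12 and 14 reads in the controls against 12 and 7 in the knockdown were split at its own 5′ site, which the decay models Srsf4-203 and Srsf4-204 share, against 104 and 62 and then 101 and 57 at the 3′ site.

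**Figure D3:**
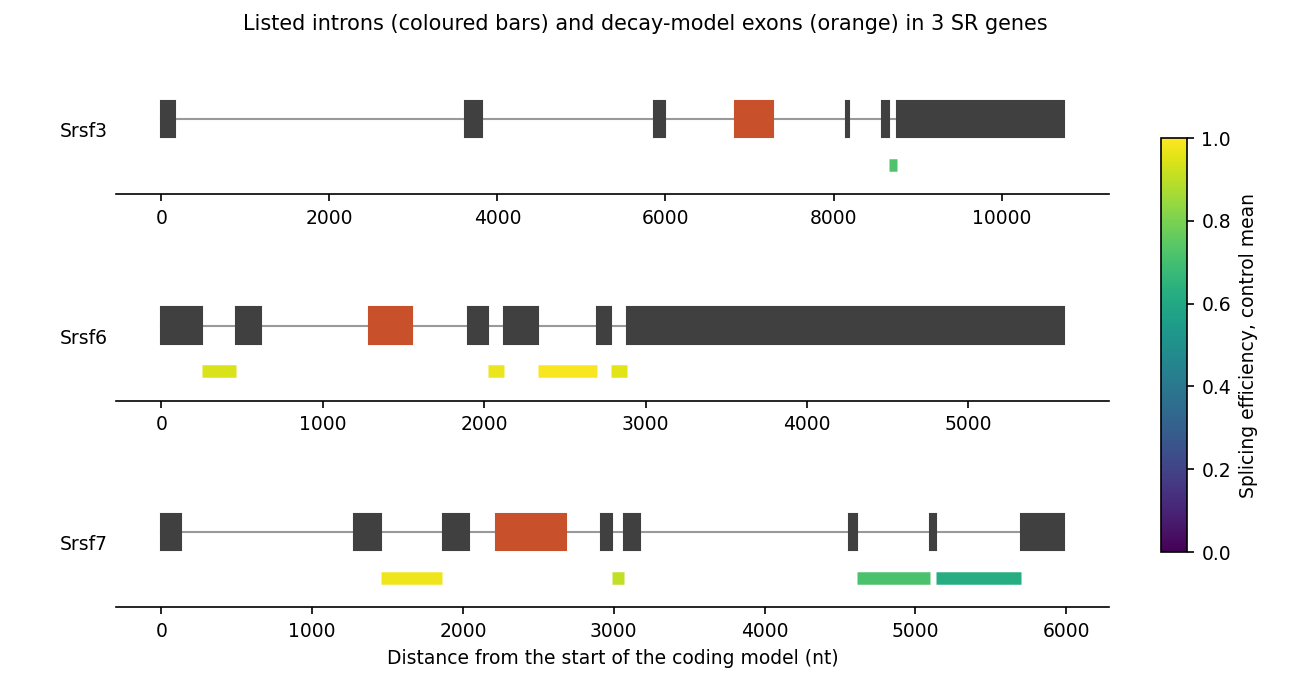
Coding models of Srsf3, Srsf6 and Srsf7 (dark boxes exons, grey line introns, x axis distance from the start of the model in nt), with the stop-carrying exon of the decay model in orange and the listed introns as bars coloured by mean control splicing efficiency. No coloured bar spans an orange exon, and the greener bars at the right ends are Srsf3 intron 5 and Srsf7 introns 6 and 7.

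Spliced RNA of the SR genes was measured as split reads at 5′ junctions. Per listed intron, the control level ran from 123 ± 1.44 CPM (SD, n = 2) for Srsf6 through 57.9 ± 3.14 for Srsf2, 57.9 ± 6.30 for Srsf5, 49.5 ± 0.09 for Srsf7, 44.3 ± 0.46 for Srsf10 and 23.6 ± 1.89 for Srsf11. It went on with 20.8 ± 1.72 for Srsf1, 13.3 ± 1.89 for Srsf9, 10.5 ± 0.75 for Srsf3 and 2.99 ± 0.29 for Srsf4. In this order Srsf2 and Srsf5 overlapped in the 2 control libraries, and no other neighbours did. The order depends on which introns are listed, as introns of a gene differed widely. In control replicate 1, split reads at the 5′ junction ran from 193 at intron 1 to 2942 at intron 4 of Srsf6.

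No SR gene passed the test of spliced reads. edgeR called 0 of 10, against 8.72% of 9474 genes. Its unadjusted p was under 0.05 in 0 of 10, against 1870 of all 9474 genes. DESeq2 also called 0 of 10, against 660 of all 9474 genes. The log2 fold changes ran from -0.13 to 0.27, and the median was -0.01, as against 0.01 over all genes. Fewer cells and less RNA per cell cannot be told apart in these bulk samples. The tightest bounds were those of Srsf6, with a log2 fold change of -0.02 (95% interval -0.17 to 0.13) from 489 and 497 CPM for control and 470 and 521 CPM for knockdown libraries. Srsf11 stood at 0.08 (-0.10 to 0.27), Srsf10 at -0.09 (-0.29 to 0.12) and Srsf5 at -0.10 (-0.31 to 0.10). For Srsf1 the fold change was 0.02 (-0.31 to 0.35), for Srsf4 0.02 (-0.36 to 0.41), for Srsf9 -0.08 (-0.49 to 0.32) and for Srsf3 0.00 (-0.41 to 0.40).

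For Srsf2 and Srsf7 the estimate depended on which knockdown library was kept. Srsf2 had 55.7 and 60.1 CPM in the controls against 88.1 and 52.9 in the knockdown, with a log2 fold change of 0.27 (95% interval -0.05 to 0.60). Without knockdown replicate 2 the log2 fold change was 0.58, and without knockdown replicate 1 it was -0.15. Srsf7 had 198 and 198 for control and 196 and 171 for knockdown libraries, with a log2 fold change of -0.13 (-0.31 to 0.04). Without knockdown replicate 1 it was -0.24. With 1 knockdown library left, these fits take the lone library to vary like the other group, so no call is read from them.

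**Figure D4:**
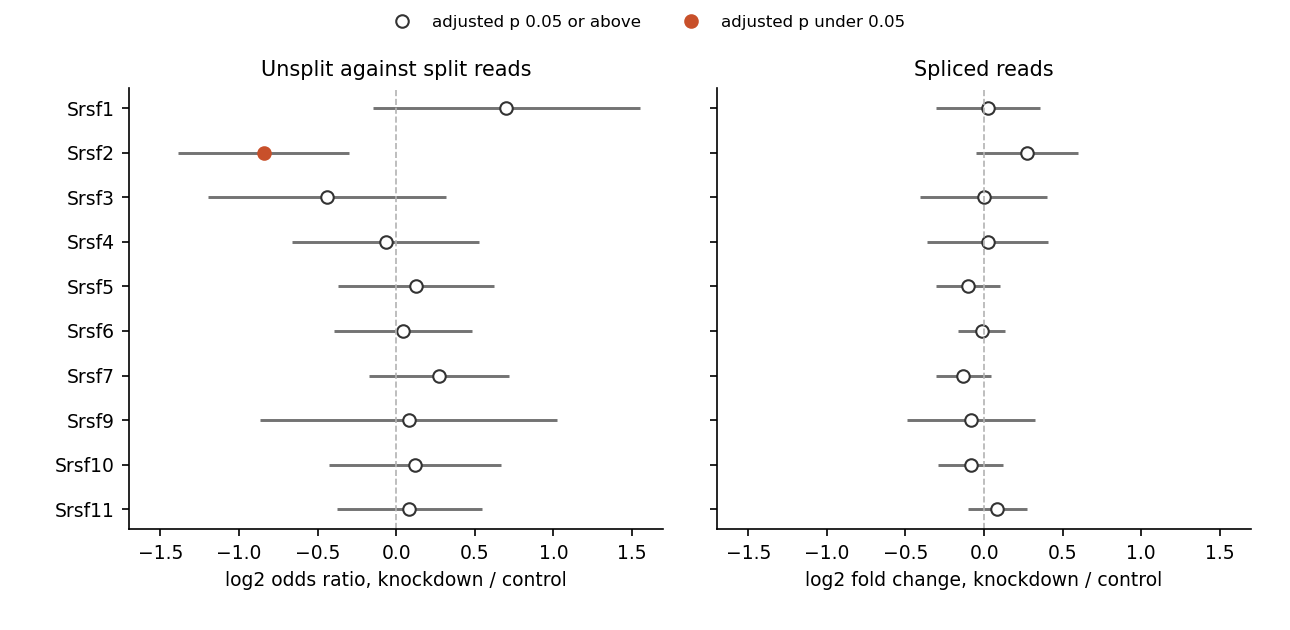
Change between knockdown and control for the 10 SR genes, with points for the estimate and lines for its 95% interval. Left, log2 odds ratio of unsplit against split reads, where the filled point of Srsf2 at -0.84 has an adjusted p under 0.05. Right, log2 fold change of spliced reads, where all 10 intervals include 0.

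In long reads the SR genes had 5489 reads in the control and 3158 in the knockdown, on 75 of 85 models. With 1 library per group there is no test, and the intervals given here cover counting error only. Srsf3 had the most, at 688 CPM of all long reads in the control and 633 CPM in the knockdown, a log2 ratio of -0.12. Its place at the top differs from total RNA, where it came ninth of the 10 genes per listed intron. The measures are unlike. Long reads count all models of Srsf3, and its total RNA level rests on intron 5 alone, with a control mean splicing efficiency of 0.720. Srsf6 had 150 and 107 CPM, a log2 ratio of -0.49 (95% interval -0.74 to -0.25), and Srsf4 had 52 reads in the control and 17 in the knockdown (-0.88, -1.78 to -0.08). Srsf2 had 51.3 and 66.7 CPM (0.38, 0.03 to 0.73) and Srsf1 37.0 and 45.9 (0.31, -0.11 to 0.73). The quartiles of the log2 ratio over 9611 genes with at least 20 reads were -0.32 and 0.24, so these 4 genes lay outside them and the rest of the SR genes inside. None of the SR genes (0 of 10) differed by 2-fold or more, against 6.42% of those genes.

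Among single models, 39 had at least 20 long reads, and 1 of 39 differed by 2-fold or more, against 9.20% of 13807 transcripts (6.04% lower). It was Srsf4-202, the coding model of Srsf4, with 32 reads in the control and 6 in the knockdown. Its log2 ratio was -1.64 (95% interval -3.25 to -0.42). With at least 50 reads required, 0 of 24 SR models did. The main coding model Srsf3-202 stood at 604 and 549 CPM (log2 ratio -0.14, 95% interval -0.25 to -0.03). Srsf6-203 had 142 and 94.9 (-0.58, -0.84 to -0.32) and Srsf5-201 had 132 and 108 (-0.28, -0.53 to -0.04). These intervals exclude 0 and cover counting error only. Srsf7-208 had 93.8 and 106 (0.17, -0.10 to 0.44).

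The models that carry a poison exon or a kept intron held shares of the SR long reads whose intervals overlapped between the libraries. In the control, models not annotated as protein coding took 16.5% of the SR reads (95% Wilson interval 15.5 to 17.5). In the knockdown they took 17.04% (15.8 to 18.4). Over all genes with a coding model the shares were 10.4% and 10.8%. Of the SR reads, decay models took 2.81% (2.40 to 3.28) and 3.20% (2.64 to 3.87). Retained-intron models took 12.8% (11.9 to 13.7) and 13.1% (11.98 to 14.3). Over all genes decay models took 1.42% and 1.48%, and retained-intron models 6.24% and 6.64%. RNA of decay models is degraded in cells, so these shares are of what remained, and poison exon splicing itself was not measured.

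Gene by gene, the decay model with the most reads was Srsf3-201, with 76 reads in the control and 59 in the knockdown, or 24.7 and 31.5 CPM (log2 ratio 0.35, 95% interval -0.16 to 0.86). Srsf3-204, which keeps that exon whole with its flanks, had 139 and 76 (-0.15, -0.58 to 0.26). Srsf7-203, with the 460 nt exon, had 38 and 19 (-0.28, -1.16 to 0.55), and the retained-intron model Srsf7-207 had 78 and 49 (0.05, -0.50 to 0.58). For Srsf2, the retained-intron model Srsf2-203 had 24 and 25 reads (0.76, -0.09 to 1.65) and the decay model Srsf2-204 had 17 and 13. Srsf6-204, which keeps the Srsf6 poison exon whole with its flanks, had 20 and 19 (0.63, -0.34 to 1.62). All of these intervals include 0.

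The share on models not annotated as coding spanned the SR genes widely. In the control it was 0.877% for Srsf1, 5.42% for Srsf6, 8.41% for Srsf10, 12.2% for Srsf3, 19.98% for Srsf5, 20.2% for Srsf7, 27.2% for Srsf2 and 37.5% for Srsf11. Srsf4 stood at 38.5% (26.5 to 52.0) in the control and 64.7% (41.3 to 82.7) in the knockdown, on 52 and 17 reads, and Srsf6 at 5.42% (3.70 to 7.88) and 10.5% (6.97 to 15.5). These pairs of intervals overlap. Srsf9 had the highest control share, 61.9% (40.9 to 79.2) on 21 reads, and stood at 61.5% (35.5 to 82.3) on 13 reads in the knockdown. For the genes other than Srsf4 and Srsf6 the libraries differed by 3.98 percentage points or less.

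**Figure D5:**
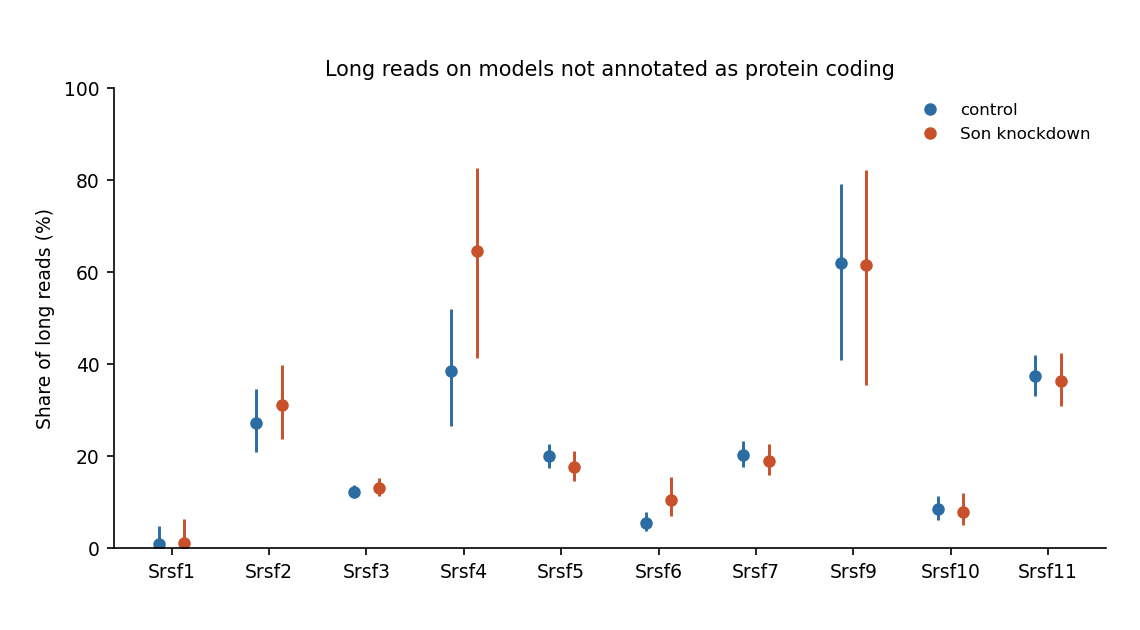
Share of each SR gene's long reads on models not annotated as protein coding (y axis, percent) in the control (blue) and Son knockdown (orange) library, with 95% Wilson intervals that cover counting error only. Srsf4 and Srsf6 are higher in the knockdown with overlapping intervals, and the other genes lie within 3.98 points of the control.

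Other genes of the SR pathway were counted in the same tests. Of 12 kinases, phosphatases and import factors of SR proteins 11 were tested, and 1 had fewer spliced reads (against 6.76% of all genes) and 1 a lower splicing efficiency (against 6.98%), in both cases Clk2. CLK2 is a kinase of the SR tail. Clk2 had 54.8 and 54.1 CPM in the controls against 27.2 and 25.2 in the knockdown (log2 fold change -1.08, SE 0.121, edgeR adjusted p = 3.36e-06). Its splicing efficiency was 0.871 and 0.847 for control and 0.674 and 0.585 for knockdown libraries (log2 odds ratio 1.84). Clk1, Clk4, Srpk1 and Srpk2 did not pass either test, with log2 fold changes of 0.03, 0.22, -0.15 and 0.17.

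Of 32 other proteins with arginine- and serine-rich stretches 31 were tested. In spliced reads 1 rose (against 1.96% of all genes) and 2 fell (against 6.76%), and in splicing efficiency 1 fell (against 6.98%). Srrm2, which codes for a scaffold of nuclear speckles, rose by a log2 fold change of 0.30, and Tra2a (-0.37) and Cherp (-0.34) fell in the edgeR test, while the log2 odds ratio of Cherp was 0.80. Each of these calls was lost when control replicate 1 or control replicate 2 was left out. That of Cherp in splicing efficiency was also lost without knockdown replicate 2. Of 10 factors of nonsense-mediated decay, 2 fell in spliced reads (against 6.76% of all genes), Upf1 (-0.34), the helicase at the centre of the pathway, and Upf3a (-0.43). Splicing efficiency fell in 2 (against 6.98% of all genes), Upf1 (log2 odds ratio 0.79) and Smg9 (1.01). The Upf1 call in spliced reads was lost without control replicate 2. That in splicing efficiency was lost without control replicate 1, control replicate 2 or knockdown replicate 2. Upf3a was lost without control replicate 1 or control replicate 2, and Smg9 without control replicate 1 or knockdown replicate 2. All of these fits leave 1 library in a group, and they called fewer of all genes than the main fits.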

How the data were processed

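Per the labels, the total RNA tables come from SPLICE-q. In them the authors deposited, for every intron, junction counts of split and of unsplit reads and a score, a fraction equal to split over all junction reads. For long reads they deposited counts per transcript. The submitters' processing notes name GRCm39, minimap2 and SAMtools. Annotation, filters and strand handling are not given in the sources used here. Every listed junction had at least 10 reads. Positions are those of the tables. GENCODE M21, on another build, gave names, transcript types, model structures and transcript letters by identifier: 98.6% of the long-read transcripts and 99.6% of the reads matched, and 99.8% of 84627 introns had the same length.

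Repeated introns were reduced to 1 entry, and introns listed in all 4 libraries were used. Split and unsplit reads were tested with edgeR 4.0.16 in R 4.3.3, with a term per library, unsplit reads and unsplit reads in the knockdown, over all introns or genes with at least 10 split and 10 unsplit reads, with Benjamini-Hochberg adjustment and a threshold of 0.05. A read across an intron counts at both junctions. Spliced reads per gene used edgeR with TMM and its expression filter. DESeq2 1.42.0 and limma 3.58.1 were alternatives, and the models were tested on simulated data. Long reads were scaled to library totals (CPM), with a pseudocount of 0.5 reads shared by library totals.

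The introns named are any called, each gene's largest change in mean splicing efficiency with at least 50 reads in every library, those of low splicing efficiency and some others. The transcripts given with values are some of the SR genes' largest and some of their decay and retained-intron models. Introns of low splicing efficiency, the short introns and the decay models were chosen after their values were seen, and the members and lists were chosen with earlier results of these data known. Up to 6 called members of each list are named. Replicate numbers are shared by the groups, but same-numbered libraries did not deviate together (correlations 0.00846 and 0.00174), so no block was used.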

Additional observations from a re-analysis of the deposited data

How the results depend on the processing

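The count of SR introns called was 0 under each alternative tried except when split and unsplit reads were scaled separately, which called 1, Srsf2 intron 1 (log2 odds ratio -1.003, edgeR adjusted p = 0.0194). That scaling moved the median log2 odds ratio over all genes from 0.09 to -0.08, and the genes called from 654 lower and 12 higher in splicing efficiency to 601 and 118. The single SR gene called for splicing efficiency, Srsf2, gave a count of 0 with the 5′ junction only, with DESeq2 and with limma. With a library left out, its call was kept only without knockdown replicate 2. limma called 0 of 9370 genes and 0 of 63309 introns in all. Over all introns, fewer than in the main fit were also called with DESeq2, with 1 junction only, or without either control library. With the 5′ junction only, the Srsf2 log2 odds ratio was reversed at 1.57, and the cause was not tested. For spliced reads the count was 0 under the alternatives that kept all libraries. Leaving out a library leaves 1 in its group, so calls for spliced reads are not counted from those fits. The log2 fold changes of Srsf2 and Srsf7 then moved as given above. Son kept its fall, with log2 fold changes of -1.69 to -1.53 when each library was left out. With a replicate block the SR counts were 0 introns, 1 gene for splicing efficiency (Srsf2) and 0 genes for spliced reads, and Son stood at -1.61, while over all introns 1626 were called in place of 1112, over all genes 1018 in place of 666 for splicing efficiency and 1000 in place of 826 for spliced reads. With at least 50 long reads required, 0 SR transcripts were past 2-fold. The share of long reads on non-coding models was 19.2% in the control and 19.4% in the knockdown without Srsf3, and 2.81% and 3.20% for decay models alone. Of 578 recomputed values of single genes and introns, 489 stayed as they were within their error and side of the threshold, and 70 of the 486 for SR genes changed sign. Depth limited single introns, whose 95% bounds of the log2 odds ratio reached -1.66 and 1.64.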
